A study of Mus musculus with 18 samples.

Results

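The NF-kappaB family of the mouse thymus was examined as 5 subunit genes (Nfkb1, Nfkb2, Rel, Rela and Relb) and 3 inhibitor genes (Nfkbia, Nfkbib and Nfkbie) in isolated thymocytes, which are T cells in development, from C57BL/6 mice. Each of 9 Agilent 2-colour arrays carried Cy3-labelled RNA of an older mouse, of 6, 16 or 24 months with 3 arrays per age, and Cy5-labelled RNA of 1 month mice. The 1 month RNA is called a pool in the design text but numbered as 9 mice in the labels of the samples, and it was treated as 1 control sample. The suspensions had been strained, washed free of fat cells and treated to lyse red cells, and no sort for a thymocyte stage is described. No array had the dyes swapped, so age and dye cannot be told apart in any value set against 1 month, and in such suspensions fewer cells of a type and less RNA per cell cannot be told apart either. Members were chosen by gene name among the 41174 probes that were not controls: 7 probes carried a member's name, 1 for each member except Nfkbie. A further 4 probes were annotated to members by their description or RefSeq accession, of which 2 belong to Nfkb1, 1 to Rela and 1 to Nfkbie, and they are described apart. Values are log2 ratios of the processed signal of the older mouse over that of 1 month, so a negative value means lower in the older mouse. Because the members and this measure had been chosen with results of these arrays known, member values against 1 month are given as a description with no test.

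NF-kappaB proteins are dimeric transcription factors that rest in the cytoplasm bound by IkappaB inhibitors. In the canonical route the IkappaB kinase complex marks the inhibitors for degradation and releases dimers such as p50 with RelA or c-Rel, whereas in the alternative route the kinase NIK leads to processing of p100 and release of p52 with RelB. In the thymus the pathway is known for its part in thymocyte survival and selection, and in the development of medullary epithelium.

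Several NF-kappaB genes are textbook targets of the pathway itself, so the RefSeq promoter windows (GRCm38.p6, from 250 bases before to 50 after a gene's start) were searched for the kappaB letters GGGANNNNCC on both strands. The windows covered Nfkb2, Rel, Rela, Nfkbia, Nfkbib and Nfkbie. Nfkb2 has 3 windows, each of the others 1, and 6 of these 8 windows held a match, against 20.7% of all 32851 windows in the table. The 6 windows belong to 4 genes, and windows 2 and 3 of Nfkb2 overlap and so share part of their sequence. Of the matches that lie before a start, the one nearest to it is shown for each of the 4 in 60 bases. The stretches run 5′ to 3′ on the gene's own strand, with every match in the stretch in capitals. They lie at chr19:46304677-46304736 on the plus strand (Nfkb2), chr11:23771027-23771086 on the minus strand (Rel), chr19:5637299-5637358 on the plus strand (Rela) and chr12:55492648-55492707 on the minus strand (Nfkbia).
Nfkb2: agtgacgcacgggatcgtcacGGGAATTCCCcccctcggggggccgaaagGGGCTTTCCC
Rel: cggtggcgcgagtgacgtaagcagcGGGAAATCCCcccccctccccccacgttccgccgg
Rela: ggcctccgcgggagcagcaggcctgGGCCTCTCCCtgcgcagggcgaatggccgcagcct
Nfkbia: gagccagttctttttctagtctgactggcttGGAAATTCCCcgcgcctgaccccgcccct
The matches began 10 (Nfkb2), 92 (Rel), 217 (Rela) and 29 (Nfkbia) bases before the start. The other windows of Nfkb2 held matches 236, 225 and 110 bases before their own starts, and the window shown held another match 39 bases before the start. That one and the match of Rel fit the motif on both strands, while those of Rela and Nfkbia and the nearer one of Nfkb2 fit it on the opposite strand. A match describes letters in the window and not a bound site.

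All 7 named member probes were well above background in both channels on all 9 arrays, and none was saturated or an outlier spot on any array. Nfkb1 was the member that stood lower than 1 month on every array, and Rel and Rela were higher than 1 month on every array. For Rela this did not hold under other scalings. With loess on background-corrected signals Rela read -0.0074 on 6 month replicate 3. When the arrays were only centred on their median, the mean of Rela was below 0 at every age. Of all probes with a log ratio on each array, 12.8% had all 9 above 0 and 13.8% had all 9 below 0. The median of the 7 members' mean log ratios was 0.13 at 6 months, 0.22 at 16 months and 0.22 at 24 months, against -0.01, -0.01 and -0.02 over all 37449 tested probes, but with median centring it was -0.18, -0.07 and -0.31, against -0.04, -0.06 and -0.08 over all probes. At 6 and 16 months 4 of 7 members had all 3 log ratios above 0, where 26.8% and 28.8% of tested probes did, and at 24 months 2 of 7 did, where 25.6% of probes did. At each age 1 of 7 members, Nfkb1, had all 3 below 0, where 30.6%, 30.3% and 30.8% of probes did.

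**Figure D1:**
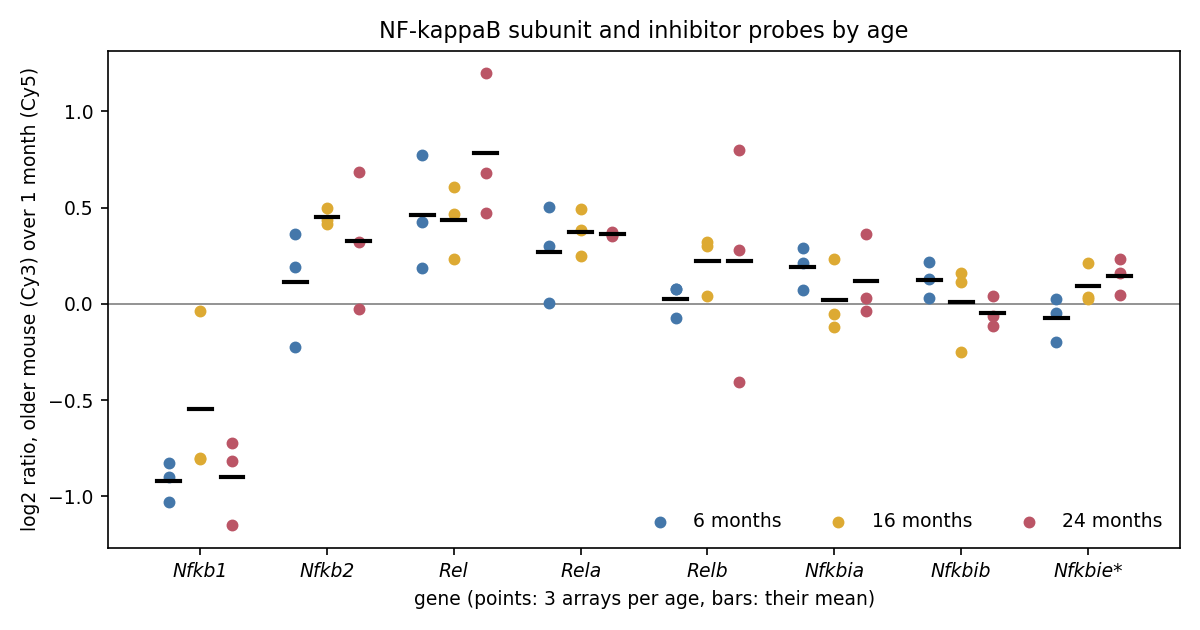
Log2 ratio of older mouse over 1 month (y axis) for each NF-kappaB member (x axis), with 1 point per array, 3 arrays per age and a bar at their mean; ages run from 6 to 24 months within a gene. Nfkb1 lies at -0.92, -0.55 and -0.90 on average, while Rel averages 0.46, 0.44 and 0.78; the Rela, Nfkbia, Nfkbib and Relb means that lie above 0 all fall below it when the arrays are only centred on their median, except that of Relb at 24 months, as do the 16 and 24 month means of the starred Nfkbie probe, which was named through its accession.

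Nfkb1 encodes p105, the precursor that is cut to the p50 subunit and that itself acts as an inhibitor. Its named probe gave log2 ratios of -0.90, -1.03 and -0.83 at 6 months, -0.04, -0.81 and -0.80 at 16 months, and -0.82, -1.15 and -0.72 at 24 months. The means were -0.92 ± 0.10 at 6 months, -0.55 ± 0.44 at 16 months and -0.90 ± 0.22 at 24 months (SD, n = 3 each), which are 1.89-, 1.46- and 1.86-fold lower than 1 month. Of all tested probes, 0.312% lay lower than this probe at 6 months, 2.03% at 16 months and 0.772% at 24 months. The array of 16 month replicate 1 stood apart with a ratio near 0, and without it the 16 month mean was -0.80. The direction held with loess on background-corrected signals (-0.83, -0.51 and -0.78) and with median centring (-1.30, -0.97 and -1.49).

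The separate channels show which side of the ratio varied. The processed signal of Nfkb1 in the older mice was 4090, 3273 and 3308 at 6 months, 6807, 4319 and 4342 at 16 months, and 3801, 2102 and 4643 at 24 months. In the 1 month channel of the same arrays it was 7627, 6686 and 5872, then 6982, 7554 and 7571, then 6703, 4665 and 7673. On a log2 scale, after taking each channel's 75th percentile as 0, the older channel ran between 0.42 and 1.51 and the 1 month channel between 1.59 and 1.83, so the 2 channels did not overlap. The share of all probes whose channels did not overlap was not computed. The SD over 9 arrays was 0.31 in the older channel and 0.09 in the 1 month channel. Every other member probe also varied more in the older channel. Among them were Rel (0.31 and 0.17), Nfkb2 (0.25 and 0.11) and Rela (0.13 and 0.10). The older channel carried mice of different ages, and the other channel only 1 month RNA. The share of all probes that varied more in the older channel was not computed. Whether the larger spread is particular to the members was therefore not tested. The lowest older value of Nfkb1 was that of 24 month replicate 2, which was also the dimmest array.

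**Figure D2:**
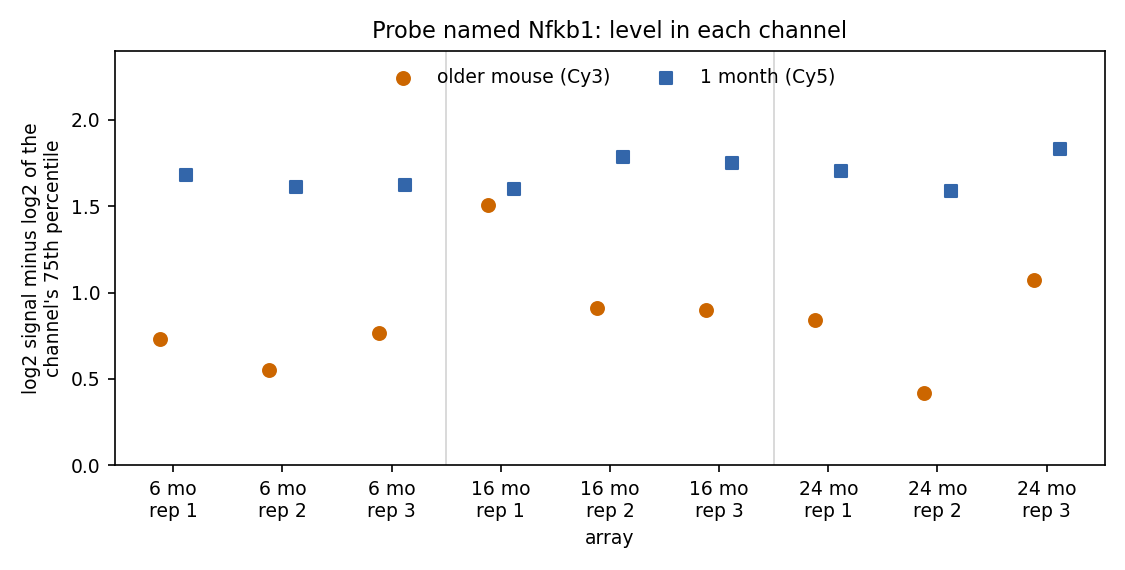
Level of the named Nfkb1 probe on each of the 9 arrays (x axis), as log2 processed signal minus log2 of the channel's 75th percentile (y axis), with circles for the older mouse (Cy3) and squares for 1 month (Cy5). The older values span 0.42 to 1.51 and the 1 month values 1.59 to 1.83, and the gap is smallest for 16 month replicate 1.

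The other 2 probes annotated to Nfkb1 pointed the opposite way. The probe BC050841, described as an mRNA similar to Nfkb1, gave 0.63, 0.60 and 0.84 at 6 months, 0.45, 0.64 and 0.73 at 16 months, and 0.66, 0.57 and 0.60 at 24 months. The probe C130067K17, described as an inferred Nfkb1 transcript, gave 1.06, 1.03 and 0.36 at 6 months, 0.42, 0.76 and 1.05 at 16 months, and 1.03, 0.40 and 0.52 at 24 months. Both were higher in the older mouse on all 9 arrays, with means of 0.61 to 0.69 for BC050841 and of 0.65 to 0.82 for C130067K17. With loess on background-corrected signals these means were 0.42 to 0.50 and 0.29 to 0.46, still above 0. At 6, 16 and 24 months 97.3%, 94.7% and 94.7% of all tested probes lay lower than BC050841. For C130067K17 these shares were 98.4%, 96.9% and 95.4%. Where these probes lie in the transcript was not analysed here, so the direction of Nfkb1 against 1 month depends on the probe read. The array of 16 month replicate 1, where the named probe was highest, was the lowest of the 9 for BC050841.

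**Figure D3:**
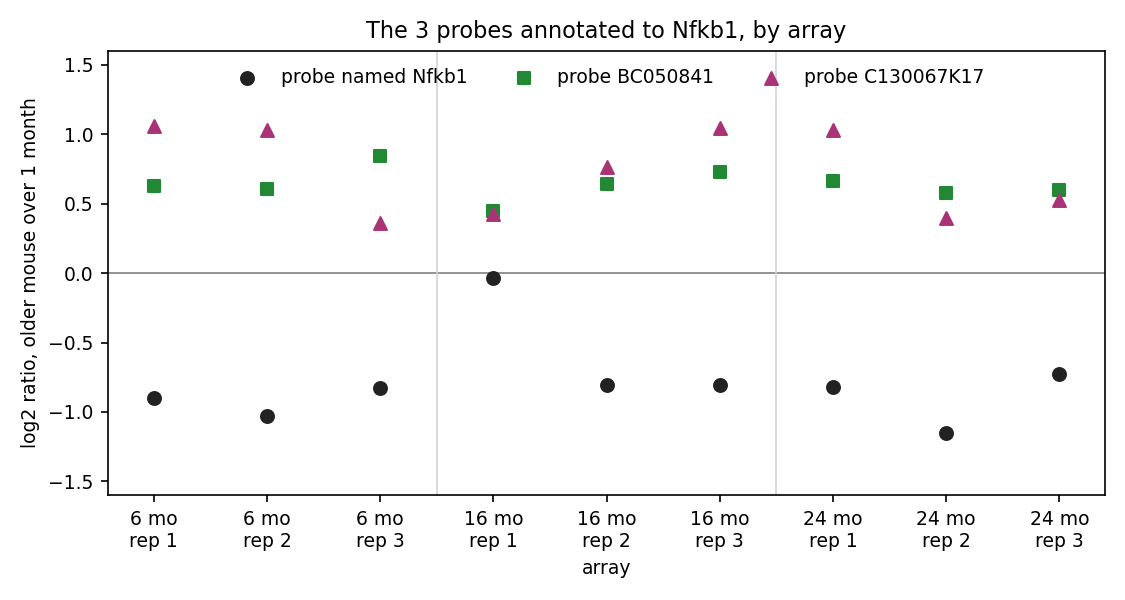
Log2 ratio of older mouse over 1 month (y axis) on each of the 9 arrays (x axis) for the 3 probes annotated to Nfkb1. The named probe (circles) is at or below -0.04 on every array, and BC050841 (squares, 0.45 to 0.84) and C130067K17 (triangles, 0.36 to 1.06) are above 0 on every array.

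Nfkb2 encodes p100, the precursor of p52 in the alternative route. Its log2 ratios were 0.36, 0.19 and -0.22 at 6 months, 0.42, 0.43 and 0.50 at 16 months, and 0.69, -0.02 and 0.32 at 24 months. The 16 month arrays lay close together (0.45 ± 0.04, SD, n = 3), while the other ages straddled 0 (0.11 ± 0.30 at 6 months and 0.33 ± 0.36 at 24 months). Relb encodes the subunit that pairs with p52. It gave 0.08, -0.07 and 0.08 at 6 months, 0.32, 0.04 and 0.30 at 16 months, and 0.80, -0.41 and 0.28 at 24 months. The 24 month arrays of Relb spread most of any named member and age (SD 0.60, n = 3), and their mean of 0.22 became -0.06 without replicate 1 and 0.54 without replicate 2. With median centring the means of Nfkb2 were 0.01, 0.21 and 0.10 and those of Relb -0.02, -0.01 and 0.10.

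Rel encodes c-Rel, a subunit with a transactivation domain that is best known from lymphocytes. Its log2 ratios were 0.19, 0.77 and 0.43 at 6 months, 0.61, 0.47 and 0.24 at 16 months, and 0.68, 1.20 and 0.47 at 24 months. The means were 0.46 ± 0.30, 0.44 ± 0.19 and 0.78 ± 0.37 (SD, n = 3 each). Rel had low signals, 304.7 to 414.2 in the older mice and 180.6 to 300.1 at 1 month, and the largest ratio came from the dimmest array, 24 month replicate 2. With loess on background-corrected signals its means were 0.24, 0.24 and 0.35, and with median centring 0.57, 0.51 and 0.80.

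Rela encodes p65, the transactivating partner of p50. Its log2 ratios were 0.50, 0.30 and 0.0035 at 6 months, 0.25, 0.49 and 0.38 at 16 months, and 0.37, 0.35 and 0.36 at 24 months. The means were 0.27 ± 0.25, 0.38 ± 0.12 and 0.36 ± 0.01 (SD, n = 3 each), and the 24 month arrays were nearly equal. With median centring and no dye curve these means were -0.18, -0.07 and -0.31, so the direction of Rela depended on how the dyes were balanced. The second probe annotated to Rela, F730039C18, was well above background in the older channel on 6 of 9 arrays and in the 1 month channel on 8 of 9, and was not tested. Its log2 ratios ran from -0.88 to 0.86, with 4 above 0 and 5 below.

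The inhibitors had mean log2 ratios between -0.07 and 0.19 over the 3 ages. Nfkbia encodes IkappaBalpha, the inhibitor that NF-kappaB itself induces. Its log2 ratios were 0.29, 0.21 and 0.07 at 6 months, -0.12, -0.05 and 0.23 at 16 months, and 0.36, 0.03 and -0.04 at 24 months. All 3 values at 6 months were above 0 and the other ages straddled it, but median centring put the mean below 0 at every age (-0.51, -0.67 and -1.05). The probe was bright, with signals of 28120 to 63710 in the older mice and 27530 to 54200 at 1 month, and it was not saturated on any array.

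Nfkbib encodes IkappaBbeta, an inhibitor that is degraded more slowly. Its log2 ratios were 0.22, 0.13 and 0.03 at 6 months, -0.25, 0.16 and 0.11 at 16 months, and 0.04, -0.06 and -0.12 at 24 months. The means of 0.13, 0.01 and -0.05 were each within 0.23 (the largest of the 3 SDs) of one another, and with median centring they were -0.24, -0.34 and -0.56. Nfkbie encodes IkappaBepsilon and was read from the probe AK011965, which carries a RefSeq accession of the gene. It gave 0.03, -0.20 and -0.05 at 6 months, 0.21, 0.04 and 0.02 at 16 months, and 0.23, 0.04 and 0.16 at 24 months. Every 16 and 24 month value of Nfkbie was above 0, but with median centring the means were -0.37 and -0.60.

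Differences between the older ages do not use the 1 month value as their contrast and were tested in 1 limma model over all 37449 probes, with Benjamini-Hochberg adjustment. At an adjusted p under 0.05, 0 of 7 members and 0% of all probes were called at 16 against 6 months, 0 and 0% at 24 against 6 months, and 0 and 0% at 24 against 16 months. At an unadjusted p under 0.05 in the same limma fit, 6.38%, 9.11% and 4.77% of all probes passed, and 0 of 7 members in each contrast. The members' limma adjusted p ranged from 0.781 to 0.993 at 16 against 6 months, from 0.669 to 0.982 at 24 against 6 months and from 0.862 to 0.999 at 24 against 16 months. None of the 21 member differences was called under any of the 17 other settings, where the smallest limma adjusted p was 0.29.

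The intervals show how large a difference between ages these arrays leave room for. For Nfkb1 the log2 difference was 0.37 at 16 against 6 months (95% interval -0.12 to 0.87, limma), 0.02 at 24 against 6 months (-0.47 to 0.52) and -0.35 at 24 against 16 months (-0.84 to 0.15). For Rel it was -0.03 at 16 against 6 months (-0.53 to 0.47), 0.32 at 24 against 6 months (-0.18 to 0.82) and 0.35 at 24 against 16 months (-0.15 to 0.85). Rela was measured more tightly, with 0.09 at 24 against 6 months (-0.20 to 0.38). The arrays of Nfkb1 and of Nfkb2 at 16 months did not overlap those at 6 months, which was so for 13.9% of all probes. No named member was free of overlap at 24 against 6 months, where 15.9% of probes were, or at 24 against 16 months, where 10.6% were. The Nfkbie probe AK011965 did not overlap at 24 against 6 months, with a difference of 0.22 (0.01 to 0.43) and a limma adjusted p of 0.545.

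The genes whose 9 log ratios lay nearest those of the named Nfkb1 probe were Itpr1, an inositol trisphosphate receptor of the endoplasmic reticulum, Armcx2, the co-repressor gene Tle4, the phosphodiesterase gene Gpcpd1 and the mitochondrial oxidoreductase gene Etfdh. Nearness was the root mean square difference over the 9 arrays, which was 0.13 for Itpr1, 0.13 for Armcx2, 0.18 for Tle4, 0.18 for Gpcpd1 and 0.19 for Etfdh. As with Nfkb1, each of the 5 was highest on 16 month replicate 1, where Itpr1 read 0.09, Armcx2 0.06, Tle4 -0.14, Gpcpd1 -0.11 and Etfdh -0.30. The 9 values of a gene share their arrays, dyes and 1 month material with those of the other genes, and the genes were picked for this likeness.

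**Figure D4:**
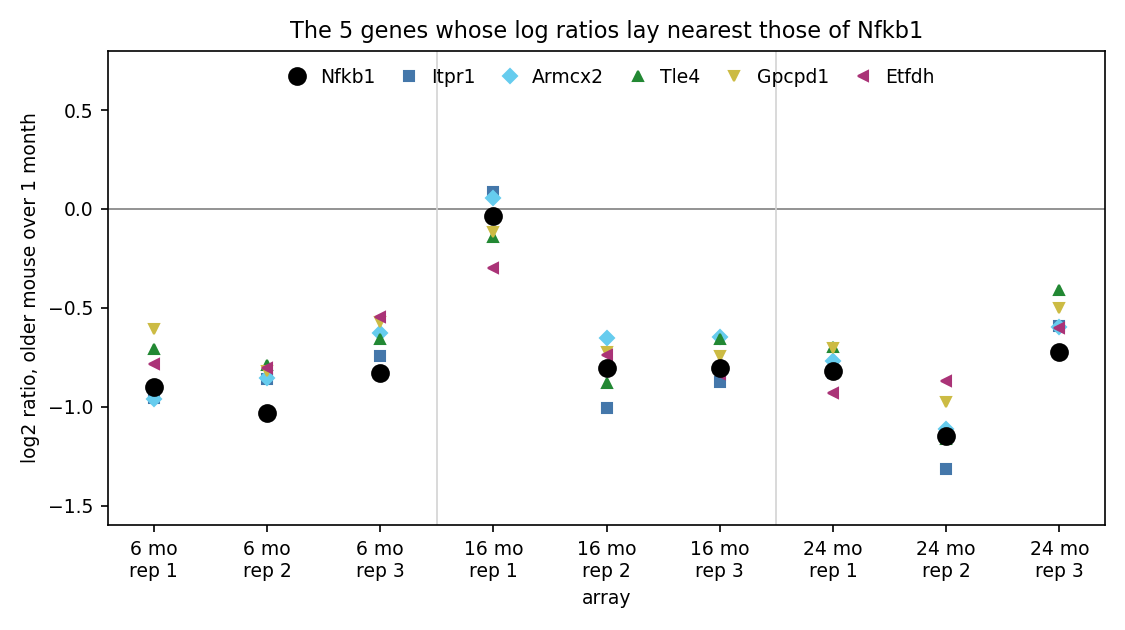
Log2 ratio of older mouse over 1 month (y axis) on each of the 9 arrays (x axis) for Nfkb1 (large circles) and for the 5 genes nearest to it. All 6 genes are highest on 16 month replicate 1, between -0.30 and 0.09.

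The wider pathway was read from 4 lists holding 80 genes and no member, of which 76 were tested against 1 month in the same limma model. The lists, like the members, were chosen with earlier results of these data known. Their calls against 1 month therefore describe these genes and are no independent support. At 6 months 8 of the 76 genes passed an adjusted p under 0.05, 4 higher and 4 lower (10.5%, against 13.3% of all 15234 genes, of which 7.75% were higher and 5.55% lower). At 16 months 17 passed, 14 higher and 3 lower (22.4%, against 20.7% of all genes, 13% higher and 7.68% lower). At 24 months 18 passed, 11 higher and 7 lower (23.7%, against 27.5% of all genes, 12.5% higher and 15% lower). The shares lay near those of all genes at each age, and with median centring in place of the dye curve 36, 31 and 52 genes passed, of which 26, 19 and 36 were lower. Under that setting 52.4%, 44.5% and 70.9% of all probes passed. The median of the tested pathway genes was -0.04, 0.10 and 0.02 at 6, 16 and 24 months, against -0.02, -0.01 and -0.02 over all genes. Map3k14, Nfkbil1 and Birc2 passed at all 3 ages. No gene of the 4 lists was called between the older ages, as no probe was.

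Among the activating kinases and adaptors, 2 of 23 were higher and 1 lower at 6 months, 7 higher and 0 lower at 16 months, and 4 higher and 3 lower at 24 months. Over all genes the shares were 7.75% higher and 5.55% lower, then 13% and 7.68%, then 12.5% and 15%. Map3k14 encodes NIK, the kinase of the alternative route. Its log2 ratios were 0.44, 0.60 and 0.46 at 6 months, 0.47, 0.59 and 0.62 at 16 months, and 0.52, 0.31 and 0.46 at 24 months. It rose at every age, with means of 0.50, 0.56 and 0.43 (SE 0.06 each, limma adjusted p = 0.00574, 0.00231 and 0.00442). Its means were 0.22, 0.22 and 0.09 under median centring, where the call at 24 months was lost (limma adjusted p = 0.282); at 24 months the loess mean was 0.28. Irak4, the kinase that carries signals of interleukin 1 and Toll-like receptors, rose at 16 months (0.70, SE 0.12) and 24 months (0.83, SE 0.12; limma adjusted p = 0.00827 and 0.00467), but loess on background-corrected signals gave only 0.23 and 0.26, which also passed. Traf2, an adaptor of tumour necrosis factor receptors, rose at 16 and 24 months by 0.38 and 0.42 (SE 0.09, limma adjusted p = 0.0235 and 0.0147), but its means were -0.18 and -0.54 with median centring. Malt1, the protease of the antigen receptor route, fell at 6 months by 0.79 (SE 0.21, limma adjusted p = 0.0458). This call was lost with no filter on dim probes (limma adjusted p = 0.0559) and with the replicate number as a block (0.0805).

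Of the 3 IkappaB kinase subunit genes, 1 passed, at 1 age. Ikbkb, its main catalytic subunit in the canonical route, rose by 0.30 at 16 months (SE 0.09, limma adjusted p = 0.047), with a mean of -0.04 under median centring. The call was also lost on the authors' scores (limma adjusted p = 0.0626), with no filter on dim probes (0.0565) and with the replicate number as a block (0.0668). Chuk, the catalytic subunit of the alternative route, had means of 0.16, 0.26 and 0.06, and Ikbkg, the regulatory subunit, of 0.05, 0.12 and 0.03, and neither passed at any age. Their second probes read -0.18, 0.06 and -0.36 for Chuk and -0.37, -0.16 and -0.53 for Ikbkg, which also did not pass.

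Among nuclear IkappaB proteins and repressors, 1 of 11 was higher and 1 lower at 6 months, 2 higher and 1 lower at 16 months, and 1 higher and 2 lower at 24 months. Of all genes 7.75%, 13% and 12.5% were higher at these ages, and 5.55%, 7.68% and 15% lower. Nfkbil1, an IkappaB-like gene, gave 0.63, 0.90 and 0.76 at 6 months, 0.35, 0.95 and 0.82 at 16 months, and 0.68, 0.80 and 0.56 at 24 months. It rose at every age (means 0.77, 0.70 and 0.68, SE 0.11 each, limma adjusted p = 0.00874, 0.00703 and 0.00713). With median centring the means were 0.40, 0.34 and 0.20, and the 24 month call was lost (limma adjusted p = 0.0824). Nfkbid, which encodes the nuclear protein IkappaBNS, rose at 16 months by 0.77 (SE 0.22, limma adjusted p = 0.0499). Loess gave 0.32 and ended the call (limma adjusted p = 0.0714), as did no filter on dim probes (0.0602) and the replicate number as a block (0.0884). Fbxw11, part of a ubiquitin ligase that marks IkappaB for degradation, fell at 6 months by 0.35 and at 24 months by 0.30 (SE 0.09, limma adjusted p = 0.0384 and 0.0406). With the replicate number as a block neither call held (limma adjusted p = 0.0672 and 0.0615). Commd1, which limits RelA activity, fell at 16 months by 0.38 and at 24 months by 0.46 (SE 0.08, limma adjusted p = 0.0207 and 0.00983), while its second probe read -0.01 and -0.19 and did not pass.

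Among 20 ligands and receptors, 0 passed at 6 months, 2 were higher and 1 lower at 16 months, and 3 higher and 1 lower at 24 months. Of all genes 7.75%, 13% and 12.5% were higher at these ages, and 5.55%, 7.68% and 15% lower. Ltb, the membrane anchor of lymphotoxin, rose by 0.81 at 16 months and 0.54 at 24 months (SE 0.12, limma adjusted p = 0.00599 and 0.0185). Under median centring its means were 0.10 and -0.61 and neither passed (0.752 and 0.0543), and on the authors' scores the 24 month call was lost (0.0528). The lymphotoxin receptor gene Ltbr, known from stromal and myeloid cells, rose at 24 months by 0.58 (SE 0.11, limma adjusted p = 0.0109), and by 0.27 with loess. Tnfrsf13c, the receptor for the B cell survival factor BAFF, rose at 16 months by 1.40 (SE 0.37, limma adjusted p = 0.0373) with log2 ratios of 2.36, 1.23 and 0.62, and by 0.64 with loess. The replicate number as a block ended this call (limma adjusted p = 0.0548). Tnfrsf4, which encodes the costimulatory receptor OX40, fell at 16 months by 0.35 (SE 0.09, limma adjusted p = 0.0317).

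Among 22 target genes, 1 was higher and 2 lower at 6 months, 3 higher and 1 lower at 16 months, and 3 higher and 1 lower at 24 months. Of all genes 7.75%, 13% and 12.5% were higher at these ages, and 5.55%, 7.68% and 15% lower. Birc2, a ubiquitin ligase that in turn limits NIK, gave 0.55, 0.47 and 0.50 at 6 months, 0.81, 0.64 and 0.61 at 16 months, and 0.54, 0.27 and 0.65 at 24 months. It rose at every age (means 0.51, 0.69 and 0.49, SE 0.08 each, limma adjusted p = 0.00916, 0.00248 and 0.00607), but with median centring its means were 0.03, 0.21 and -0.20 and none passed (limma adjusted p = 0.878, 0.301 and 0.301). Ccl5, a chemokine of cytotoxic lymphocytes, rose by 1.23 at 16 months and 1.19 at 24 months (SE 0.28, limma adjusted p = 0.0223 and 0.021), but by 0.75 and 0.52 with median centring, where neither passed (0.0502 and 0.111). Its 3 values at 6 months were -0.35, -0.59 and -0.35, which did not pass. Il2ra, the alpha chain of the interleukin 2 receptor, rose at 16 months by 0.69 (SE 0.16, limma adjusted p = 0.0236) and by 0.31 with loess, and its second probe read 1.44, 1.50 and 1.71 at the 3 ages and passed at each (limma adjusted p = 0.0162, 0.00879 and 0.00551). Cxcl2, a chemokine that draws neutrophils, rose at 24 months by 0.68 (SE 0.20, limma adjusted p = 0.0431), and by 0.43 with loess and 0.34 with median centring. Its call was lost with no filter on dim probes (limma adjusted p = 0.0504), with the replicate number as a block (0.0523) and with array weights (0.0529).

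**Figure D5:**
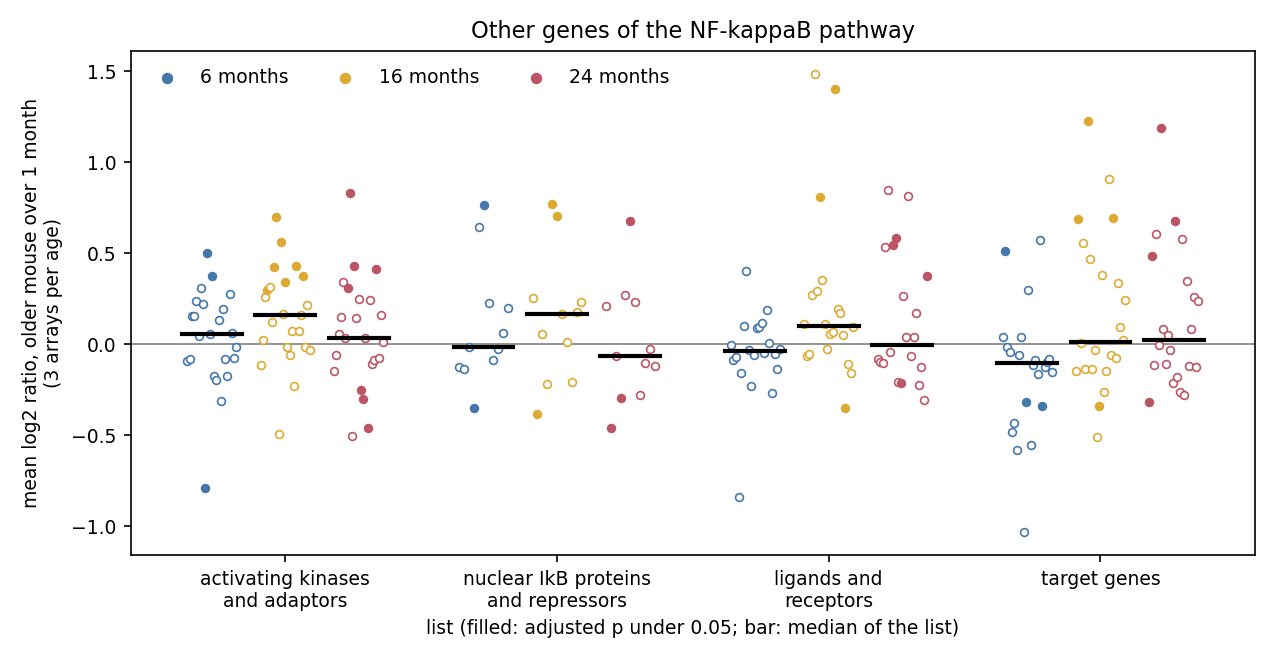
Mean log2 ratio of older mouse over 1 month (y axis) for each tested gene of the 4 pathway lists (x axis), with 1 point per gene, filled where the limma adjusted p was under 0.05, and a bar at the median of the list; ages run from 6 to 24 months within a list. Of 76 genes 8, 17 and 18 are filled at 6, 16 and 24 months; under median centring Map3k14 at 24 months and Birc2 at each age no longer pass and several genes turn direction, among them Traf2 at 16 and 24 months, Ikbkb at 16 months, and Ltb and Birc2 at 24 months.

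Single arrays decided a part of these calls. Without 6 month replicate 2 no pathway gene passed at 6 months, without 16 month replicate 2 only 2 passed at 16 months, and without 24 month replicate 1 only 6 passed at 24 months. Over all probes the same 3 settings left 0.774%, 3.31% and 9.36% called, against 12.4%, 18% and 24.9% with all arrays. The 6 month count was also 4 or 5 without 6 month replicate 1 or 3 or 16 month replicate 2 or 3, and 14 without 24 month replicate 2. The 16 month count was 10 without 16 month replicate 1 and 9 without 16 month replicate 3, and the 24 month count 11 without 16 month replicate 2 or 3 and 10 without 24 month replicate 2. Map3k14 and Birc2 kept their calls at 16 and 24 months with each of the 9 arrays left out in turn, as did Nfkbil1, Irak4 and Ltbr at 24 months. Without 6 month replicate 2 the limma adjusted p at 6 months was 0.0517 for Map3k14, 0.0733 for Nfkbil1 and 0.0658 for Birc2. Without 16 month replicate 2 it was 0.0553 for Nfkbil1, 0.0679 for Irak4 and 0.0509 for Ltb at 16 months, and without 24 month replicate 1 it was 0.0517 for Commd1 at 24 months. The calls of Traf2 and Il2ra at 16 months were lost without 16 month replicate 2 or 3 (limma adjusted p up to 0.146 and 0.149), and that of Ccl5 at 16 months without replicate 1 or 2 of that age (up to 0.114). At 24 months Traf2 lost its call without replicate 1 or 2 of that age (up to 0.0692), and Ltb and Ccl5 without replicate 1 or 3 (up to 0.0765 and 0.102). Commd1 lost its call at 16 months without any one array of that age (up to 0.0931). Malt1 and Fbxw11 lost their calls without any one 6 month array, 16 month replicate 2 or 3 or 24 month replicate 1, and Fbxw11 at 24 months also without 24 month replicate 2 (limma adjusted p up to 0.198 and 0.184). Ikbkb, Nfkbid and Tnfrsf4 lost theirs without any one 16 month array or 6 month replicate 2 (up to 0.182, 0.236 and 0.186), Ikbkb also without 6 month replicate 3, Nfkbid without 24 month replicate 3, and both without 24 month replicate 1. Tnfrsf13c lost its call without any one 6 month array, 16 month replicate 1 or 2 or 24 month replicate 1 (up to 0.159), and Cxcl2 without any one 16 or 24 month array or 6 month replicate 3 (up to 0.191).

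RNA of other cells was gauged from marker genes, whose ratios differed between arrays. All 12 thymocyte markers were well above background in the older channel on all 9 arrays, as were 7 of 8 B cell markers (not Pax5), 11 of 12 markers of dendritic cells and macrophages (not Mrc1) and 10 of 11 of thymic epithelium (not Psmb11). Of all features, 79.6% to 94.2% per array were well above background in that channel, so these counts alone do not show which cells were present. The log2 ratio of the summed signal of the B cell markers ran from -0.02 to 0.06 at 6 months, from 0.27 to 0.71 at 16 months and from -0.14 to 0.63 at 24 months. Their median log ratio ran from -0.06 to 0.02, from 0.15 to 0.38 and from -0.14 to 0.16. The summed signal of dendritic cell and macrophage markers gave ratios from -0.10 to -0.06 at 6 months, from 0.48 to 1.19 at 16 months and from 0.09 to 1.33 at 24 months. The median of these markers ran from -0.06 to -0.01, from 0.15 to 0.26 and from 0.08 to 0.92. The ratio of the summed signal of thymocyte markers ran, over the same ages, from 0.28 to 0.57, from 0.27 to 0.68 and from 0.35 to 0.54. The thymocyte sum includes Cd8b1 and Rag1, which were saturated on an array, and the markers' median ran only from 0.07 to 0.23, 0.14 to 0.18 and 0.20 to 0.30. Cd8a passed as lower at each age and Cd8b1 as higher. With median centring Cd3e, Lck and Tcf7 lay below 0 at 6 months (-0.50, -0.42 and -0.33). So did Cd3d, Cd8a, Rag1, Rag2, Ptcra and Themis (-1.08 to -0.06). Only Cd4, Cd8b1 and Bcl11b stayed above (0.37, 0.08 and 0.49). The ratio of the summed signal of thymic epithelium markers was below 0 on all 9 arrays. It ran from -0.87 to -0.77 at 6 months, from -0.82 to -0.64 at 16 months and from -0.62 to -0.16 at 24 months. The median log ratio of the 10 tested was 0.21 on 24 month replicate 1, however. Of the 10, 5, 3 and 2 passed as lower, against 5.55%, 7.68% and 15% of all genes. Large falls at 6 months were those of Ccl25 (-2.43), Prss16 (-1.92) and Krt18 (-1.57). Epcam (0.13, 0.24 and 0.04) and Dll4 (0.01, 0.17 and 0.22) had means above 0 at each age. The summed signal of granulocyte markers gave ratios from -1.95 to -1.54, from -2.35 to 1.96 and from -2.76 to -1.66 at the 3 ages. Their median log ratio ran from -0.46 to -0.38, from -0.68 to 1.47 and from -1.24 to -0.89. In the older channel 3 of 7 granulocyte markers were above background throughout (not Camp, Elane, Ngp or S100a8). The mean log2 ratio of the haemoglobin probes was -2.25, -2.34 and -1.47 at 6 months, 2.53, 1.72 and -0.75 at 16 months, and -2.24, 0.64 and 1.79 at 24 months, and was highest on 16 month replicate 1, the array on which Nfkb1 also read highest. On the next highest, 24 month replicate 3 and 16 month replicate 2, Nfkb1 read -0.72 and -0.81. It read -0.82 on 24 month replicate 1, where haemoglobin was low, and lowest (-1.15) on 24 month replicate 2. A link between the 2 was not tested. With the haemoglobin ratio as a covariate 1, 7 and 13 pathway genes passed at 6, 16 and 24 months, as did 1.2%, 9.59% and 22.7% of all probes. That setting ended the 6 month calls of Nfkbil1, Birc2, Malt1 and Fbxw11 (limma adjusted p = 0.0739, 0.0562, 0.266 and 0.23). It also ended the 16 month calls of Ikbkb, Traf2, Nfkbid, Commd1, Tnfrsf13c, Tnfrsf4, Ccl5 and Il2ra (0.0584 to 0.164) and the 24 month call of Cxcl2 (0.0624). The 6 month means of Nfkbil1, Birc2, Malt1 and Fbxw11 were 0.68, 0.55, -0.49 and -0.26 with the covariate, against 0.77, 0.51, -0.79 and -0.35 without. All 6 month arrays had low haemoglobin ratios, so the covariate and that age are hard to tell apart. A lost call therefore does not show that red cell RNA made the difference. The part of other cells in the values of Nfkb1, Tnfrsf13c, Ltbr and Ccl5 was not tested.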

How the data were processed

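Per the file headers, the deposited scanner files give 2 kinds of intensity: the mean spot signal with its local background, and a processed signal corrected for background and balanced between dyes by LOWESS (smooth factor 0.25). Agilent Feature Extraction is named as version 7.5.1 in these headers and as 7.1 in the submitters' processing notes. The score in the value table deposited by the authors was found equal to a z-score, per channel, of log10 processed signals. Of 43790 features per array 41534 were not controls. Spots flagged as outliers (34 to 179 per array) were dropped and repeated spots averaged.

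A log2 ratio of processed signals, older over 1 month, was taken per array. Probes entered the test if Cy3 was well above background on the 3 arrays of any age, or Cy5 on all 9. Well above background were 79.6% to 94.2% of features in Cy3 and 90.5% to 95.4% in Cy5; 3 arrays per age limit the precision. Nothing beyond the sample labels says the replicates are separate mice, so p-values measure the spread between these samples. If the 1 month RNA was a pool, they leave out the spread between 1 month mice.

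One limma 3.58.1 model (R 4.3.3) with a mean per age was fitted, two-sided, with Benjamini-Hochberg adjustment over 37449 probes, after a test on simulated data. Symbols were updated through RefSeq accessions and synonyms, giving 15940 symbols to 20852 probes. List genes were read from their brightest tested probe; up to 4 per list past the threshold with the largest mean change were named, besides Chuk, Ikbkb, Ikbkg and Map3k14. Members and lists were chosen with earlier results of these data known. Alternatives were normexp (offset 50) with loess or median centring, the authors' scores, no filter, a replicate block, array weights and single arrays left out; leaving out 2 arrays and a haemoglobin covariate were added after seeing the data. Tables used Python 3.11.15, pandas 2.3.3, numpy 2.4.6 and matplotlib 3.10.9.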

Additional observations from a re-analysis of the deposited data

How the results depend on the processing

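The count of 0 members called between ages was the same under every alternative run. Pathway genes called at 6, 16 and 24 months were 8, 17 and 18 and became 36, 31 and 52 with median centring, which has no dye curve. With loess on background-corrected signals they were 12, 20 and 15, 8, 16 and 20 on the authors' scores, and 6, 15 and 14 with no filter. Array weights gave 24, 25 and 25. Leaving out single arrays gave 0 to 14 at 6 months, 2 to 20 at 16 months and 6 to 16 at 24 months. Without both 16 month replicate 1 and 24 month replicate 2 the counts were 14, 15 and 10, and with haemoglobin as a covariate 1, 7 and 13; these 2 settings were chosen after seeing the data. Replicate numbers did not pair the arrays (correlations of same-numbered deviations -0.31 to 0.10, of others -0.26 to 0.33), and with the replicate number as a block 4, 12 and 12 pathway genes and 0 members were called. Median centring turned the direction of Rela at 6, 16 and 24 months (-0.18, -0.073 and -0.31), Relb at 6 and 16 months (-0.018 and -0.008), Nfkbia at 6, 16 and 24 months (-0.51, -0.67 and -1.05), Nfkbib at 6 and 16 months (-0.24 and -0.34), Nfkbie at 16 and 24 months (-0.37 and -0.60), Ikbkb at 16 months (-0.044), Traf2 at 16 and 24 months (-0.18 and -0.54), Ltb (-0.61) and Birc2 (-0.20) at 24 months. The cause was not tested. Rel and the Rela probe F730039C18 had the lowest signals of the member probes.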
